A study of Homo sapiens with 6 samples.

Results

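Active regulatory elements were examined at 8 genes that act on fetal globin expression: BCL11A, ZBTB7A, SOX6, MYB, HBS1L, LIN28B, IGF2BP1 and IGF2BP3. The genes were chosen by name from 19864 protein-coding genes of GENCODE release 29. For each gene, a start peak was one that came as close as 500 bp to an annotated start of its transcripts. Peaks inside the gene or within 100 kb of it, with no annotated start of any gene within 500 bp, were called distal. Joined across the lists, the 8 genes held 48 of 16938 distal regions and 75 of 34308 regions of any kind.

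The peaks came from precision run-on sequencing (PRO-seq), in which permeabilized cells add biotin-labelled nucleotides to nascent RNA, so that the RNA 3′ ends place the polymerases engaged in transcription. All 6 libraries were made from untreated K562, an established human leukaemia line that expresses fetal globin and that the labels call lymphoblastoid. PRO-seq 1M used the published protocol with 3 affinity purifications on 1M cells, qPRO-seq 1M used a quick protocol with 1 purification on 1M cells, and qPRO-seq 250k used the quick protocol on 250k cells. Each group had 2 replicate libraries, at least 3 passages apart, with 11 cycles of PCR for the 1M inputs and 14 for the 250k input. Each group was represented by 1 list of dREG peaks. dREG is a classifier that recognises promoters and enhancers by the run-on reads that diverge from them on both strands.

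Around birth, red cell precursors change from fetal gamma-globin to adult beta-globin. BCL11A and ZBTB7A are zinc finger repressors that bind the gamma-globin promoters and recruit the NuRD corepressor, and SOX6 is an HMG-box factor that acts with BCL11A. MYB drives the proliferation of erythroid progenitors. The interval between MYB and HBS1L, a translational GTPase gene of the ribosome rescue pathway, is known for inherited variation in fetal haemoglobin and for distal enhancers of MYB. LIN28B blocks maturation of the let-7 microRNAs, and IGF2BP1 and IGF2BP3 are mRNA-binding proteins of fetal tissues whose transcripts are let-7 targets.

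The lists held 24707 peaks for PRO-seq 1M, 38177 for qPRO-seq 1M and 15562 for qPRO-seq 250k. Depth was unknown, so a longer list and a deeper library cannot be told apart. Replicates were not listed apart, so differences between lists have no replicate spread to be set against, and no p-value was computed. In a bulk list, fewer cells using an element and less use per cell cannot be told apart. Scores have no unit, and each is given as a percentile, the share of peaks in its own list with a score at or below it. Of 15 erythroid marker genes, 12 had a start peak in PRO-seq 1M, 13 in qPRO-seq 1M and 11 in qPRO-seq 250k, against 52.9%, 54.5% and 44.0% of all protein-coding genes. HBA1 and HBA2, near-identical copies of alpha-globin, had none in any list, and GYPC had one in both 1M lists. Of 13 lymphoid markers, 10 had no start peak in any list, against 43.5% of all protein-coding genes. The defining B and T cell genes PAX5, CD79A, CD3E and LCK were among those with none, so the lymphoblastoid label was not matched by most of these markers.

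Promoter sequence was read from RefSeq windows of build GRCh38.p14 that run from 250 bases before to 50 after a start. The table held 17 windows for 7 of the 8 genes, and IGF2BP1 had no entry. Peaks overlapped 7 of the 17 windows in at least 1 list, against 37.6% of all 34959 RefSeq windows, and 5 in all 3 lists, against 26.5%. Both counts are near the background. The stretches below, which stop before any annotated untranslated region, show starts with and without a peak. They are printed 5′ to 3′ along the gene's strand. In the LIN28B inner start and in BCL11A at 60528535, capitals mark motif matches. In the others capitals mark CG dinucleotides.

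LIN28B inner start (chr6:104956857-104957047, plus strand, 191 bases): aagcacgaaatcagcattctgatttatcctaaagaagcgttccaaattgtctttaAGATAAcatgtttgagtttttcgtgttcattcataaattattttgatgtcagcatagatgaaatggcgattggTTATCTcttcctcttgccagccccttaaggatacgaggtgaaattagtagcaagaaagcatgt
LIN28B outer start (chr6:104940715-104940865, plus strand, 151 bases): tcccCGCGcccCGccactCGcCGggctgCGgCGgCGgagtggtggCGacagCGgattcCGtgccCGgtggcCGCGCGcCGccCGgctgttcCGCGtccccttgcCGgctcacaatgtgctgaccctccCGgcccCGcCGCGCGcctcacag
MYB (chr6:135181058-135181307, plus strand, 250 bases): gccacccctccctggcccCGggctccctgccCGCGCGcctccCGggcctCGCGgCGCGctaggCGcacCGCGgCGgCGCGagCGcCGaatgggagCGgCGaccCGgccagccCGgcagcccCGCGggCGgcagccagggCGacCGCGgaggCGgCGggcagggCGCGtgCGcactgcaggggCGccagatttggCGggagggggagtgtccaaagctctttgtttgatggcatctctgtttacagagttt
HBS1L (chr6:135054899-135055072, minus strand, 174 bases): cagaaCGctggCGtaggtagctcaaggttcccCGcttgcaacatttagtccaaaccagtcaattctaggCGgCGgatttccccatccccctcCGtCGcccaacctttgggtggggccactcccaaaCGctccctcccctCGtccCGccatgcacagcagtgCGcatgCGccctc
BCL11A, start 60550907 (chr2:60550926-60551157, minus strand, 232 bases): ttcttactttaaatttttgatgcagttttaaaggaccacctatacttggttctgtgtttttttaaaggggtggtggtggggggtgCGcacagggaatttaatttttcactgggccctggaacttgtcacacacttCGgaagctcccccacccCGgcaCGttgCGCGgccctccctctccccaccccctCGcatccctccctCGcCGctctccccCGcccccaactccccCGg
BCL11A, start 60528535 (chr2:60528536-60528785, minus strand, 250 bases): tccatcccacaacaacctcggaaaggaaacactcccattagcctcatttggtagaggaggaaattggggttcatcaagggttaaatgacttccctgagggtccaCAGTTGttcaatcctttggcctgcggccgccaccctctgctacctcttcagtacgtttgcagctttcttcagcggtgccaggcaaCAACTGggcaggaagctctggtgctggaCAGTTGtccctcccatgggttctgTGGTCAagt

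The LIN28B inner start is shown because peaks of both qPRO-seq lists, and none of PRO-seq 1M, overlapped its window. The full window had a GC share of 39.0%, and 10.2% of all 34959 RefSeq windows had a share as low or lower. It held AGATAA at position -195 from the RefSeq start and its reverse complement at -122. The GATA motifs searched, on both strands, were AGATAA and AGATAG together with TGATAA and TGATAG. The SOX6 windows at 16356546, 16402863, 16408856 and 16476388 held 1 GATA motif each, and no list had a peak there. No 2 matches in the members' windows shared a base. At least 2 GATA motifs were present in 6.08% of all windows. Among 9271 windows overlapped in all 3 lists that share was 1.26%, and among 166 windows overlapped in both qPRO-seq lists but not in PRO-seq 1M it was 3.61%. The LIN28B outer start is the contrast within the gene. Its window had a GC share of 73.0% and no searched motif, its printed stretch held 25 CG dinucleotides, and no list had a peak there.

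MYB and HBS1L are shown as starts with a peak in every list. The MYB window had a GC share of 71.0%, with 34 CG dinucleotides in the printed stretch, and the HBS1L window 64.7%, with 12. The median over windows overlapped in all 3 lists was 66.3%, against 51.7% over 21826 windows that no peak overlapped. None of the 5 member windows with a peak in all 3 lists (ZBTB7A, MYB, HBS1L, IGF2BP3 and the outer SOX6 start) held a searched motif. GATA motifs were present in 12.5% of windows overlapped in all 3 lists and in 24.9% of all windows.

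The BCL11A stretches come from a gene with no peak. The window at 60550907 had a GC share of 61.0% and a CpG observed over expected ratio of 0.88, equal to the median of windows overlapped in all 3 lists. The window at 60528535 held CAACTG, the MYB motif, at 3 places on either strand and TGACCA, the motif of BCL11A itself, at 1. Over all windows, 11.4% held CAACTG and 10.7% TGACCA. AP-1 motifs (TGACTCA and TGAGTCA), present in 4.92% of windows, were found in none of the 17. These matches are descriptions of letters in a window, and binding was not measured.

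Most of the 8 genes had a start peak in each list. PRO-seq 1M held one for 6 of the 8, where 52.9% of all protein-coding genes had one. In qPRO-seq 1M the count was 7 of 8, against 54.5% of all genes. In qPRO-seq 250k it was 6 of 8, against 44.0%. ZBTB7A, SOX6, MYB, HBS1L and IGF2BP3 had a start peak in all 3 lists, as did 43.1% of all protein-coding genes. At least 1 list held a start peak for 7 of the 8, against 56.5% of all genes, and BCL11A had none in any list. LIN28B had one in both qPRO-seq lists only, a pattern seen in 0.524% of genes, and IGF2BP1 had one in both 1M lists only, seen in 7.86%.

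Ranked within each list, the top start peaks of the members spread widely. In PRO-seq 1M the order from the highest percentile was SOX6, HBS1L, ZBTB7A, MYB, IGF2BP3 and IGF2BP1. In qPRO-seq 1M it was SOX6, HBS1L, MYB, ZBTB7A, IGF2BP3, LIN28B and IGF2BP1, and in qPRO-seq 250k it was HBS1L, SOX6, IGF2BP3, ZBTB7A, LIN28B and MYB. SOX6 and HBS1L thus took the first 2 places in all 3 lists. The median over members with a start peak was 80.3% in PRO-seq 1M, 72.5% in qPRO-seq 1M and 64.4% in qPRO-seq 250k. Over all protein-coding genes with a start peak the medians were 76.4%, 80.7% and 68.2%. Whether neighbours in these orders differ could not be judged without replicate lists.

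**Figure D1:**
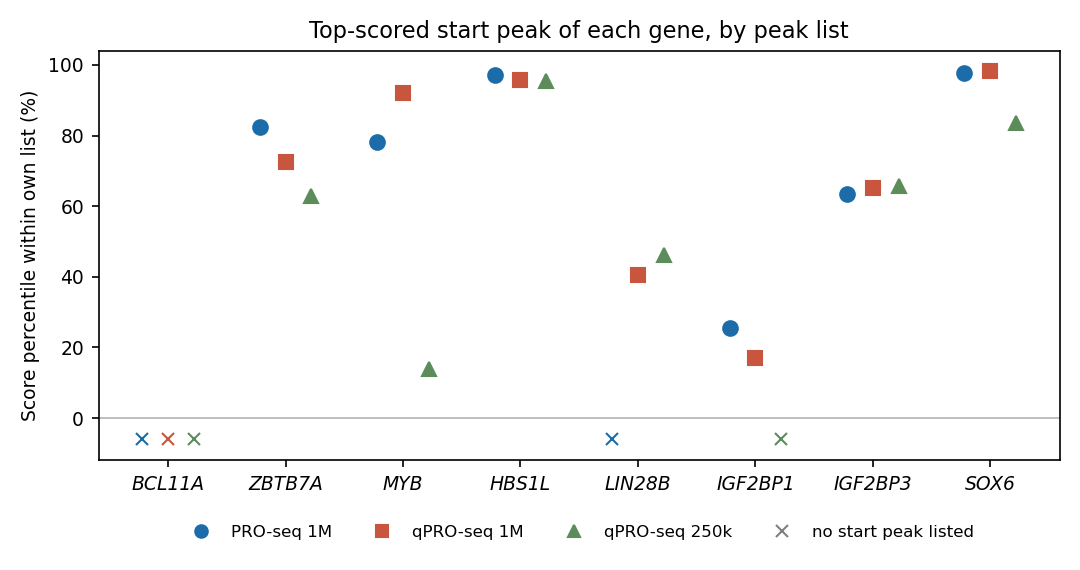
Score percentile within its own list (vertical axis, %) of the top-scored start peak of each gene (horizontal axis), by list; a cross below 0 marks a list with no start peak. HBS1L stayed between 95.5% and 97.2%, MYB ranged from 13.8% to 92.1%, and BCL11A had no point.

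BCL11A was without any peak. The gene (ENSG00000119866.21, chr2:60450520-60555154, minus strand) has 26 distinct annotated starts, and no list held a peak at one of them, elsewhere in the gene or within 100 kb of it. The nearest peak above the gene was 200.7 kb away in PRO-seq 1M, 177.5 kb in qPRO-seq 1M and 200.7 kb in qPRO-seq 250k. Below the gene the distances were 1739.1 kb, 1664.0 kb and 2208.9 kb. Of all protein-coding genes, 15.5% had no peak of any kind within 100 kb in PRO-seq 1M, 11.1% in qPRO-seq 1M and 20.5% in qPRO-seq 250k, and 10.7% had none in all 3 lists. A missing peak says that dREG listed no element there, which is not a measure of zero transcription.

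ZBTB7A, the other zinc finger repressor (ENSG00000178951.8, chr19:4044364-4066945, minus strand), had a peak at both of its annotated starts in every list. Its top start peak stood at 82.5% in PRO-seq 1M, 72.5% in qPRO-seq 1M and 63.0% in qPRO-seq 250k. Among the 15562 top-scored peaks of each list these were 72.1%, 32.4% and 63.0%. Different peaks led the lists. In PRO-seq 1M the leader was chr19:4067351-4067810, centred at -635 bp from the outer start (negative distances are upstream along the gene's strand), in qPRO-seq 1M it was chr19:4066641-4067030 at that start, and in qPRO-seq 250k it was chr19:4065921-4066310 near the inner start.

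SOX6 had the highest percentile of the members in both 1M lists. This HMG-box gene (ENSG00000110693.17, chr11:15966449-16739591, minus strand) is the longest of the 8 at 773.1 kb. Its outer start peak, chr11:16738181-16738910 in PRO-seq 1M, stood at 97.7%, with 98.2% in qPRO-seq 1M and 83.6% in qPRO-seq 250k. The start of C11orf58 lies within 500 bp of the same peak, and initiation of the 2 genes cannot be told apart there. When only starts of protein-coding transcripts were counted, SOX6 had no start peak in any list. A second group of SOX6 starts near 16605991, which no other gene shares, had a peak in all 3 lists, with top percentiles of 15.8%, 48.7% and 17.6%. The unshared starts of SOX6 therefore ranked well below the shared one in every list.

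MYB, the progenitor transcription factor (ENSG00000118513.18, chr6:135181315-135219173, plus strand), had 2 start peaks in each 1M list. One lay at the start itself, at 75.4% in PRO-seq 1M, 56.6% in qPRO-seq 1M and 13.8% in qPRO-seq 250k. The other lay just upstream and was the higher in every list, at 78.2%, 92.1% and 51.9%. The upstream peak ended 314 bp below the gene in PRO-seq 1M, 444 bp in qPRO-seq 1M and 644 bp in qPRO-seq 250k, so the 500 bp limit made it a start peak in the first 2 lists and a distal peak in the last. The low 250k value for MYB is thus that of the peak at the start alone. That peak, chr6:135181071-135181380, had a score of 0.38 and a deposited p of 0.

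HBS1L varied least between lists among the members with 3 values (ENSG00000112339.14, chr6:134960378-135103056, minus strand). Its top start peak stood at 97.2% in PRO-seq 1M, 95.6% in qPRO-seq 1M and 95.5% in qPRO-seq 250k. Among the 15562 top-scored peaks of each list these were 95.6%, 89.2% and 95.5%, a wider spread. The PRO-seq 1M peak, chr6:135054561-135055390, was centred at -11 bp from the start at 135054819, inside the annotated gene. The middle of its region, joined across the lists, lay 47.9 kb from the outermost start. The outermost start, at 135103056, had no peak within 500 bp in any list. The antisense gene AL353596.1 also starts in the HBS1L start region, and the peaks carry no strand, so the 2 cannot be told apart.

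LIN28B, the let-7 inhibitor (ENSG00000187772.7, chr6:104936616-105083332, plus strand), had a start peak at 1 of 3 distinct starts, the inner one at 104957048 whose sequence is printed above. It stood at 40.4% in qPRO-seq 1M (chr6:104956771-104957180) and at 46.3% in qPRO-seq 250k (chr6:104956801-104957180). PRO-seq 1M had no peak within 500 bp, and its nearest was 618 bp from the start, at 55.4%. That neighbour, chr6:104956031-104956430, was also in qPRO-seq 1M at 42.5% and not in qPRO-seq 250k. With a window of 1000 bp around starts that neighbour counted as a LIN28B start peak, while the region at the start itself still had no PRO-seq 1M peak.

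IGF2BP1 had the lowest top percentile of the members in both 1M lists. This mRNA-binding protein gene (ENSG00000159217.9, chr17:48997412-49055650, plus strand) stood at 25.4% in PRO-seq 1M (chr17:48997271-48997790) and at 17.0% in qPRO-seq 1M (chr17:48997761-48998380). In qPRO-seq 250k its nearest peak, in a separate region, was 822 bp from a start, at 60.4%, and counted as a start peak with the 1000 bp window. The noncoding gene AC091133.2 starts at the same place and cannot be told apart from IGF2BP1. IGF2BP3 (ENSG00000136231.13, chr7:23310209-23470467, minus strand), its paralog, stood at 63.4%, 65.1% and 65.7%. These near-equal values depended on list length, since among the 15562 top-scored peaks of each list they were 42.0%, 14.4% and 65.7%. Its qPRO-seq peaks at the outer start, chr7:23470361-23470800 and chr7:23470281-23470710, shared the centre 23470520, while the top PRO-seq 1M peak lay at the inner start 23467926.

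**Figure D2:**
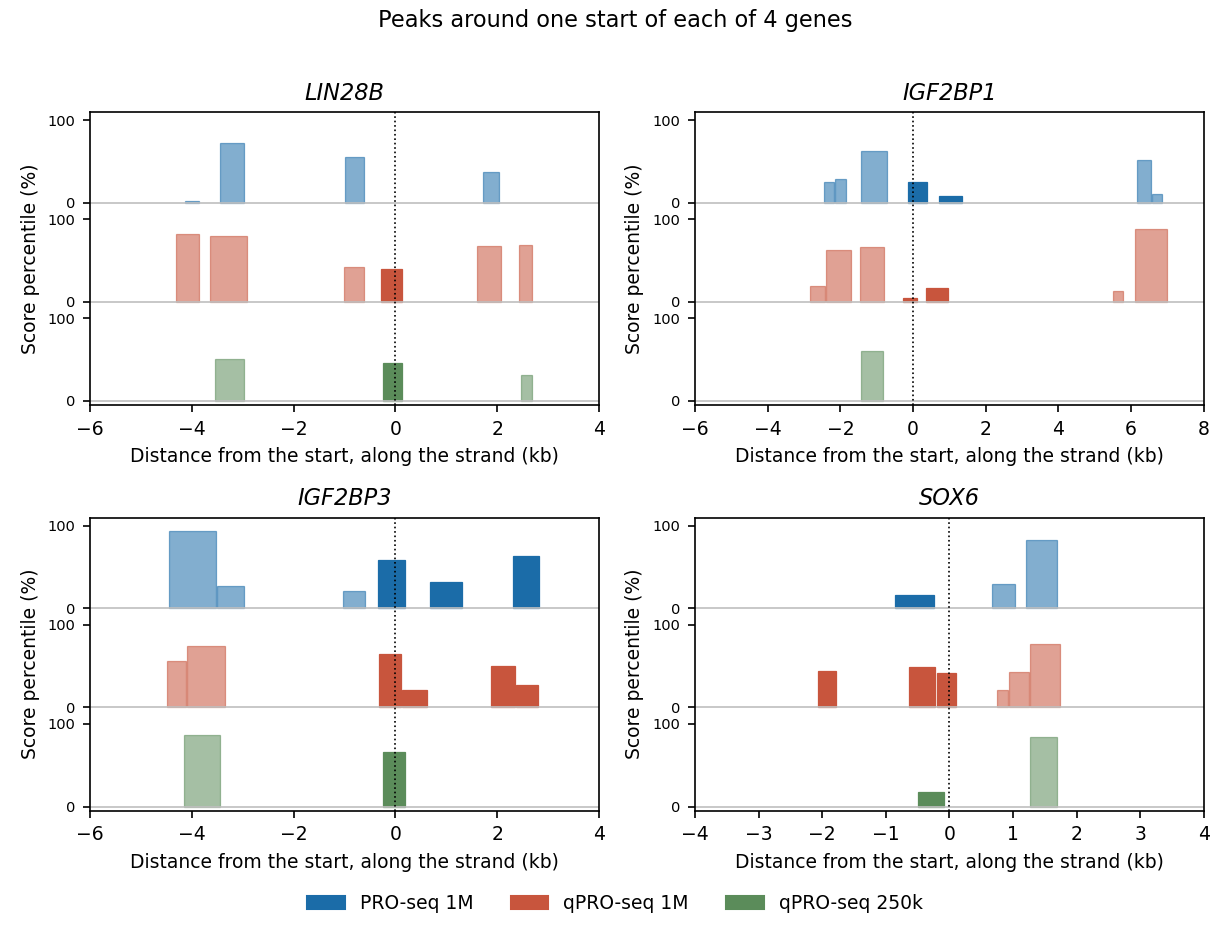
Peaks around 1 start of LIN28B, IGF2BP1, IGF2BP3 and SOX6, by distance from that start along the gene's strand (horizontal axis, kb) and score percentile within the list (vertical axis, %, 1 track per list); strong colour marks peaks within 500 bp of a start of the gene and pale colour other peaks. At LIN28B the start peak is in both qPRO-seq tracks, and the PRO-seq 1M track has its nearest peak 618 bp away.

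Counted by distinct starts, the members held a peak at 27 of 93 starts in PRO-seq 1M, 29 in qPRO-seq 1M and 22 in qPRO-seq 250k. Of all distinct starts of protein-coding genes, 36.6%, 37.9% and 30.4% had one. ZBTB7A had a peak at 2 of 2 starts, MYB at 6 of 10 and HBS1L at 7 of 15 in every list. IGF2BP3 had one at 6 of 16 starts in both 1M lists and at 4 in qPRO-seq 250k, and IGF2BP1 at 4 of 6 in the 1M lists and at 0 in qPRO-seq 250k. SOX6 had a peak at 2, 3 and 2 of its 15 starts, and LIN28B at 0, 1 and 1 of 3.

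Distal peaks near the 8 genes numbered 26 in PRO-seq 1M, 51 in qPRO-seq 1M and 14 in qPRO-seq 250k. With each list held to its 15562 top-scored peaks, the length of the shortest list, the 1M counts were 14 and 22. A peak in the windows of both MYB and HBS1L was counted once. The 7 genes other than BCL11A each had at least 1 in every list. The median protein-coding gene had 1 distal peak in PRO-seq 1M, 2 in qPRO-seq 1M and 0 in qPRO-seq 250k, and 46.0%, 24.8% and 62.0% of genes had none. Among the members, ZBTB7A had 11 in qPRO-seq 1M, and 97.8% of protein-coding genes had as many or fewer. That count depended on the rule, since it was 7 with start windows of 1000 bp, 6 with peaks within 500 bp merged, 5 within 50 kb, 4 among the 15562 top-scored peaks and 0 inside the gene. SOX6 had 10 there, and 2 among the 15562 top-scored peaks, but its window is long. Per 100 kb of window SOX6 had 1.03 distal peaks in qPRO-seq 1M, against 4.94 for ZBTB7A, 3.78 for MYB and a median of 0.812 over all protein-coding genes.

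Joined across lists, the distal peaks made 48 regions, of which 24 lay in introns, 19 between genes and 5 overlapped an exon. All 3 lists held 9 of the 48 (18.8%, Wilson 95% interval 10.2% to 31.9%), against 16.2% of all distal regions. Both 1M lists alone shared 10 (20.8%, against 18.1%), and qPRO-seq 1M alone held 23 (47.9%, interval 34.5% to 61.7%, against 55.3%). The remaining 6 comprised 3 that only PRO-seq 1M held (against 5.69% of all distal regions), 2 that only the qPRO-seq lists shared (against 3.15%) and 1 that only qPRO-seq 250k held (against 1.25%). None was shared by PRO-seq 1M and the 250k list alone, against 0.295%. The intervals for the shares quoted with one included the background value. They cover counting error only, and neighbouring peaks are not independent.

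**Figure D3:**
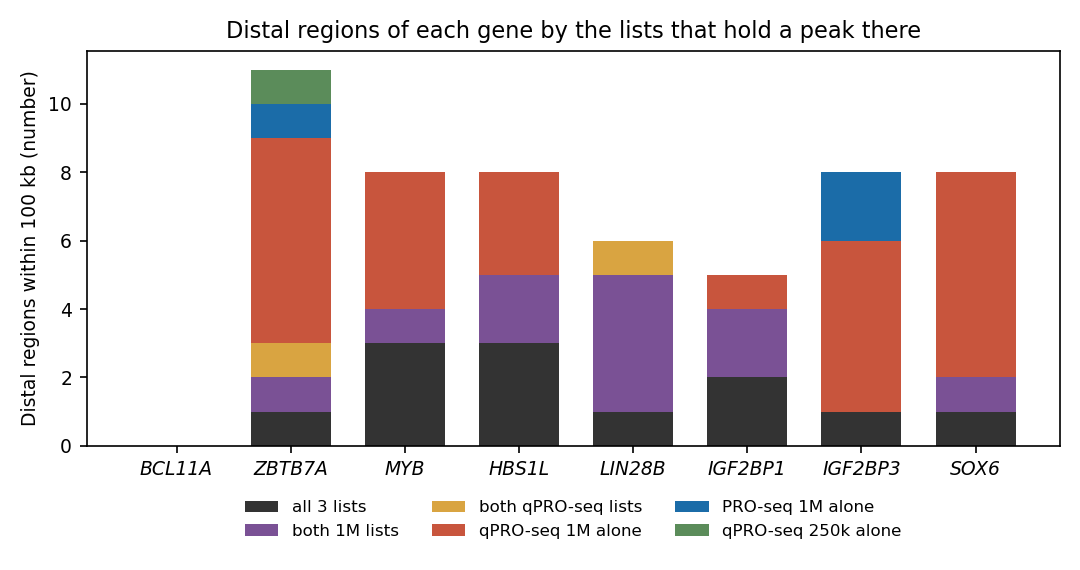
Number of distal regions within 100 kb of each gene (vertical axis), stacked by the lists that hold a peak in the region. ZBTB7A had 11 regions, 6 of them in qPRO-seq 1M alone, LIN28B had none from a single list, and BCL11A had 0; 6 regions are drawn for both MYB and HBS1L.

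Regions in more lists ranked higher in qPRO-seq 1M. The median percentile there was 79.4% for the 9 regions in all 3 lists, 65.5% for the 10 in both 1M lists and 31.0% for the 23 in qPRO-seq 1M alone. The same medians over all distal regions were 79.1%, 53.5% and 26.1%. Over single distal peaks, the members' median percentile was 37.9% in PRO-seq 1M, 50.8% in qPRO-seq 1M and 41.4% in qPRO-seq 250k, against 33.9%, 39.6% and 35.2% for all distal peaks.

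Among the repressor genes, the ZBTB7A region chr19:4130671-4131570, intergenic and centred at -64.2 kb from the outer start, ranked far apart between the lists. It stood at 38.5% in PRO-seq 1M, 95.9% in qPRO-seq 1M and 99.0% in qPRO-seq 250k. It lies beyond MAP2K2, whose start region is at -57.3 kb, and nothing in these lists ties it to either gene. The top ZBTB7A region of 1 list alone was chr19:3990111-3990700, at 50.8% in qPRO-seq 1M. At SOX6 the region in all 3 lists was intronic, chr11:16604251-16605320, 1.2 kb inside the start at 16605991. It stood at 83.5%, 77.3% and 84.5%, above the start peaks beside it in each list. The top SOX6 region of 1 list alone, chr11:16779451-16779700, lay in an intron of PLEKHA7 and stood at 66.9% in qPRO-seq 1M.

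Of the genes in the let-7 pathway, LIN28B had 5 distal regions from -4.1 kb to 2.6 kb of its inner start. The one in all 3 lists, chr6:104953411-104954130, lay in an intron at -3.3 kb and stood at 72.7% in PRO-seq 1M, 79.4% in qPRO-seq 1M and 51.3% in qPRO-seq 250k, above the start peak in each qPRO-seq list. Its neighbour chr6:104952741-104953180 ranked far apart in the lists that held it, at 1.8% in PRO-seq 1M and 82.8% in qPRO-seq 1M. All 6 distal regions of LIN28B were in at least 2 lists.

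IGF2BP1 had 2 distal regions in all 3 lists. The intergenic region chr17:48972311-48972790, at -24.9 kb, stood at 89.0%, 90.5% and 82.7%, far above the gene's own start peaks. The region chr17:48995941-48996680, at -1.1 kb and over an exon of AC091133.2, stood at 63.4%, 66.7% and 60.4%. The IGF2BP1 region of 1 list alone was intronic, chr17:49002901-49003190, at 12.7% in qPRO-seq 1M. At IGF2BP3 the region in all 3 lists was chr7:23473451-23474960, intergenic and at -3.7 kb, at 94.4%, 75.1% and 86.4%. It too stood above the start peaks of its gene in every list. The top IGF2BP3 region of 1 list alone, chr7:23243611-23244100, lay in an intron of GPNMB and stood at 56.2% in qPRO-seq 1M.

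MYB had 3 distal regions in all 3 lists, each also within 100 kb of HBS1L. The higher-ranked in qPRO-seq 1M, chr6:135191701-135192690, overlapped an exon of MYB 10.9 kb into the gene. Its top qPRO-seq 1M peak, from 10.94 to 11.38 kb into the gene, stood at 97.1%. Another qPRO-seq 1M peak of the region, from 10.39 to 10.91 kb, stood at 61.6%. The PRO-seq 1M peak, from 10.44 to 11.04 kb, stood at 16.8% and lay mostly over the peak at 61.6%. The qPRO-seq 250k peak, from 10.85 to 11.30 kb, stood at 15.2% and lay mostly over the peak at 97.1%. The next, chr6:135183701-135184430, lay in an intron 2.8 kb into the gene and stood at 65.3%, 81.5% and 5.2%. Both ranked highest in qPRO-seq 1M. The top MYB region of 1 list alone was intergenic, chr6:135262071-135262630, at 40.8% in qPRO-seq 1M.

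The interval between the outermost annotated starts of HBS1L and MYB (chr6:135103057-135181314, 78.3 kb) held 3 peaks of PRO-seq 1M, 5 of qPRO-seq 1M and 2 of qPRO-seq 250k. Distances here are from the MYB start to the peak centre. All 3 lists had peaks at the MYB start and at -0.7 to -0.8 kb, given above. The peak at -33.5 kb was in both 1M lists, at 43.3% in PRO-seq 1M (chr6:135147691-135147980) and 82.8% in qPRO-seq 1M (chr6:135147551-135148100), and qPRO-seq 250k had none there. The peaks at -70.9 kb (37.2%) and -19.4 kb (17.7%) were in qPRO-seq 1M alone. No peak of the interval more than 1 kb from the MYB start was therefore in all 3 lists.

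The HBS1L starts with a peak lie inside the annotated gene, and the interval counted from the outermost of them (chr6:135054899-135181314, 126.4 kb) held 5, 9 and 4 peaks. This longer interval was added after the values were seen. It included an HBS1L intronic region in all 3 lists at -96.5 kb, chr6:135084511-135085000, at 40.5% in PRO-seq 1M, 75.6% in qPRO-seq 1M and 31.0% in qPRO-seq 250k. It also included chr6:135074041-135074410 at -107.1 kb, the top HBS1L region of 1 list alone, at 45.0% in qPRO-seq 1M.

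**Figure D4:**
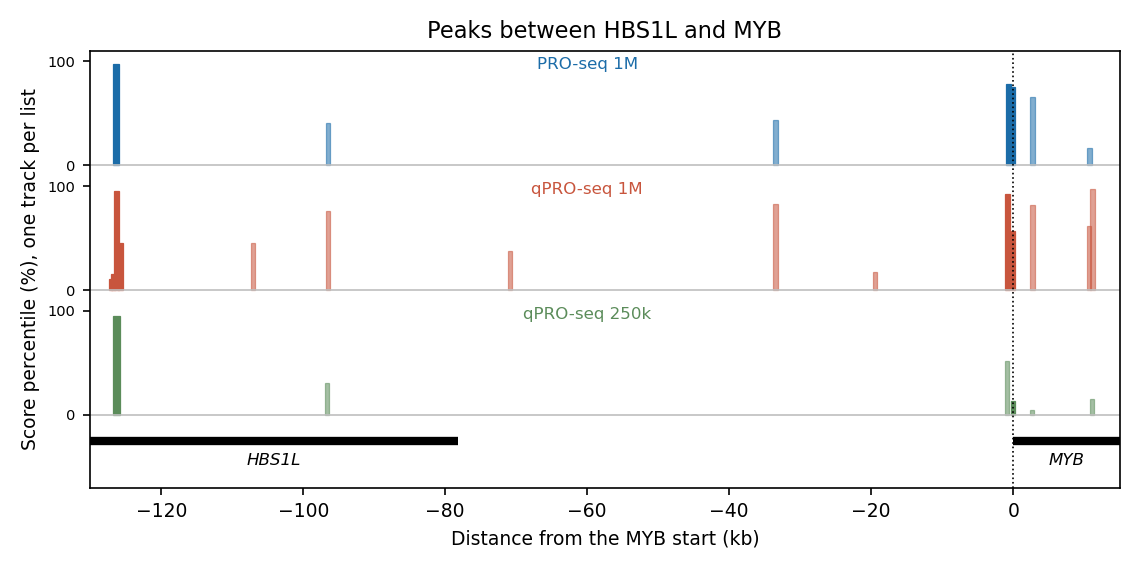
Peaks from the HBS1L starts with a peak to the first part of MYB, by distance from the MYB start (horizontal axis, kb) and score percentile within the list (vertical axis, %, 1 track per list), with strong colour for start peaks, pale colour for distal peaks and black bars for the annotated genes. The peak at -33.5 kb is in both 1M tracks and not in qPRO-seq 250k, and those at -70.9 and -19.4 kb are in qPRO-seq 1M alone.

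Sharing of distal peaks between lists was close to that of distal peaks elsewhere. Of 26 PRO-seq 1M distal peaks of the members, 23 were overlapped by at least 1 bp in qPRO-seq 1M (88.5%, Wilson 95% interval 71.0% to 96.0%), against 86.9% of all distal peaks of that list. In qPRO-seq 250k, 10 of the 26 were overlapped (38.5%, interval 22.4% to 57.5%, against 43.1%). Of 51 qPRO-seq 1M peaks, 26 were overlapped in PRO-seq 1M (51.0%, interval 37.7% to 64.1%, against 42.4%). Only 14 of the 51 were overlapped in qPRO-seq 250k (27.5%, interval 17.1% to 40.9%, against 24.4%). Of these 4 shares, 3 were above and 1 below that of all distal peaks, and both qPRO-seq 250k shares given next were below. Of 14 qPRO-seq 250k peaks, 11 were overlapped in PRO-seq 1M (78.6%, interval 52.4% to 92.4%, against 80.2%) and 13 in qPRO-seq 1M (92.9%, interval 68.5% to 98.7%, against 93.3%). Each of the 6 intervals included its background share. Fewer qPRO-seq 1M peaks than qPRO-seq 250k peaks, as a share, were overlapped in PRO-seq 1M (51.0% against 78.6%). Likewise, fewer qPRO-seq 1M than PRO-seq 1M peaks were overlapped in qPRO-seq 250k (27.5% against 38.5%). All distal peaks showed both gaps (42.4% against 80.2%, and 24.4% against 43.1%), so neither is particular to the members. Among the 15562 top-scored peaks of each list, the members' shares were 63.6% against 71.4% and 54.5% against 57.1%.

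**Figure D5:**
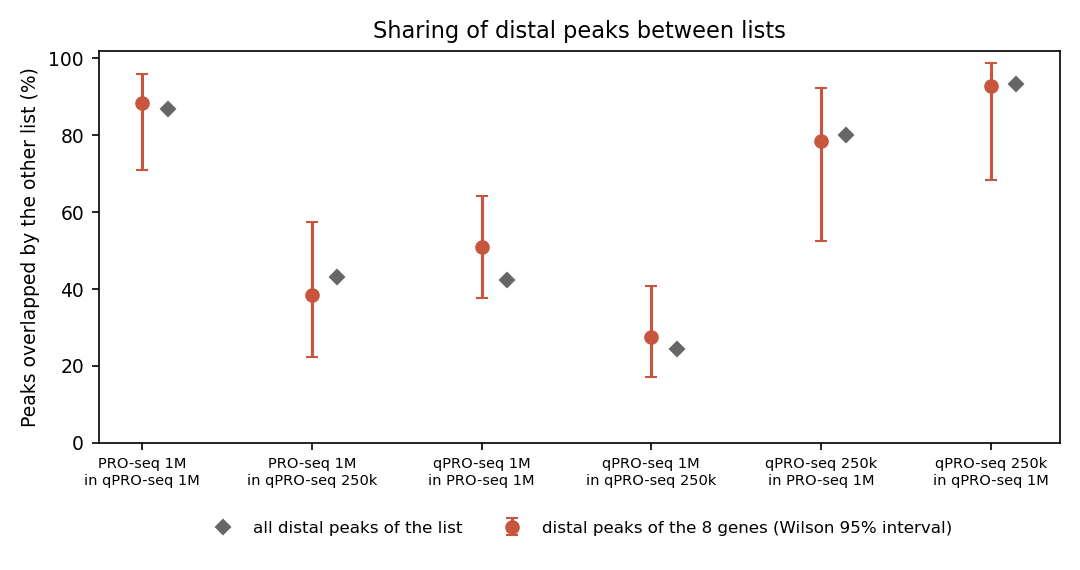
Share of distal peaks of the first list overlapped by the second (vertical axis, %) for peaks of the 8 genes, with bars for the Wilson 95% interval, and for all distal peaks of the list. Every interval includes its background value, from 24.4% for qPRO-seq 1M in qPRO-seq 250k to 93.3% for qPRO-seq 250k in qPRO-seq 1M.

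A wider list of 39 genes of fetal globin regulation was set beside the members. It covers erythroid factors, nuclear factors, CCAAT factors, orphan receptors, genes of the fetal program, NuRD subunits, chromatin enzymes and other regulators. Start peaks were listed for 35 of the 39 in PRO-seq 1M, 35 in qPRO-seq 1M and 33 in qPRO-seq 250k, against 52.9%, 54.5% and 44.0% of all protein-coding genes. All 3 lists held one for 33, against 43.1%. LIN28A, the paralog of LIN28B, HMGA2, another let-7 target, CHD3, an alternative NuRD remodeller, and EHMT2, a histone H3 lysine 9 methyltransferase, had none in any list. The NuRD remodeller CHD4 stood at 45.6% in PRO-seq 1M and 51.3% in qPRO-seq 1M and was without a start peak in qPRO-seq 250k. So was MBD2, the methyl-CpG binding subunit, at 56.8% and 90.1% in the 1M lists. The other 10 of 13 NuRD genes listed had a start peak in all 3 lists. Median top percentiles over the wider list were 78.3%, 78.6% and 44.3%, against 76.4%, 80.7% and 68.2% over all protein-coding genes with a start peak.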

How the data were processed

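Run-on libraries of K562 cells were grouped by sample title, and the labels give 1 peak list for the 2 replicates of each group. Per the submitters' processing notes, reads were handled with fastp 0.20.0, Bowtie2 2.3.5.1, UMI-tools and deepTools 3.1.3 on hg38 (GRCh38). The dREG version, its thresholds and the pooling of replicates are not given in the sources used here. The score of each peak and its p-value are as the authors deposited them, without a header, and whether the p-value was adjusted is not stated. It lay between 0 and 0.05.

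From these lists, peaks on chromosomes 1 to 22 and X were compared with GENCODE release 29 using Python 3.11.15, pandas 2.3.3 and numpy 2.4.6, and intervals came from statsmodels 0.14.6. The code for overlap, start windows, joining of regions and merging was tested on simulated data, and the ranking code was not. Starts are printed counted from 1. Peaks sharing at least 1 bp were joined into regions. All 8 genes were named. Distal regions named were, per gene, up to 2 in all 3 lists with the highest qPRO-seq 1M percentile and the top one of 1 list alone, together with all peaks of the HBS1L-MYB interval. Others, such as the LIN28B neighbours, were chosen after their values were seen. The members and lists were chosen with earlier results of these data known. Depth per library is unknown. Promoter sequences are from RefSeq. Sequences of distal peaks were not analysed here, and some marker genes are not reported here by name.

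Alternatives were a limit of 0.01 on p, the 15562 top-scored peaks of each list, start windows of 1000 bp, protein-coding starts, distances of 50 kb or gene bodies only, merging of peaks within 500 bp, overlap of 50% of both peaks, centres within 100 bp, and percentiles among start-near peaks. Added after seeing the data were the longer HBS1L-MYB interval and removal of peaks with a deposited p of exactly 0 and a score below their list's median.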

Additional observations from a re-analysis of the deposited data

How the results depend on the processing

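Of 141 alternative values of the counts, medians and shares reported, 112 stayed within the limits set for a change and 29 moved. BCL11A had no start peak under any alternative. At equal list length (the 15562 top-scored peaks), the median top percentile was 72.1% in PRO-seq 1M and 80.6% in qPRO-seq 1M. Over the full lists these medians were 80.3% and 72.5%, so their order changed. Distal peaks at equal length numbered 14 and 22, and qPRO-seq 1M alone held 4 regions. In qPRO-seq 1M, 2 interval peaks were left, and 54.5% of its distal peaks were overlapped in qPRO-seq 250k. LIN28B and IGF2BP1 then had no start peak in either 1M list. Within 50 kb, qPRO-seq 1M alone held 13 regions. In gene bodies only, distal peaks numbered 13, 20 and 7, with 5 regions in all 3 lists, 6 in qPRO-seq 1M alone, and 65.0% of qPRO-seq 1M peaks overlapped in PRO-seq 1M. Merging within 500 bp left 33 distal peaks in qPRO-seq 1M and, in the interval, 1 peak in qPRO-seq 250k. With p of at most 0.01, qPRO-seq 1M overlapped 100% of the distal peaks of both other lists. Overlap of 50% of both peaks, or centres within 100 bp, gave 65.4% for PRO-seq 1M in qPRO-seq 1M and 35.3% for the converse. Among start-near peaks the median top percentiles were 74.6%, 63.6% and 59.1%. The longer HBS1L-MYB interval held 5, 9 and 4 peaks. Without low-scored peaks of p 0, qPRO-seq 250k kept 1 interval peak and MYB lost its start peak there. The causes were not tested beyond the smaller number of peaks, genes or bases that an alternative itself imposes.

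No paired analysis was possible because each group had 1 list for both of its replicates, and for the same reason no fit without a replicate exists. The depth behind each list is unknown, so a peak missing from a list was not detected there and is not shown to be absent.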

Other observations

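At 4 genes the distal region in all 3 lists with the highest qPRO-seq 1M percentile ranked above the gene's start peaks in each list that had them. These were LIN28B, IGF2BP1, IGF2BP3 and SOX6 (for SOX6, above the start peaks not shared with C11orf58), and the pattern was noticed after the values were seen. The neighbours with the highest scores near the members were often starts of other genes. The TRA2A start region, at -61.6 kb from an IGF2BP3 start, stood at 99.5% in PRO-seq 1M, 99.3% in qPRO-seq 1M and 99.9% in qPRO-seq 250k. The MAP2K2 start region near ZBTB7A stood at 99.1%, 98.3% and 77.8%. A peak region in all 3 lists over the last part of SOX6, chr11:15969151-15969800, coincides with the annotated start of the microRNA gene MIR6073 and stood at 16.4%, 89.8% and 43.2%.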
